A study of Mus musculus with 10 samples.

Results

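Leptomeningeal fibroblast genes were read here in the deposited expected counts as 38 of the 24054 genes of the table. Their members were chosen as genes of leptomeningeal and perivascular fibroblasts with the collagens set aside, and several of them were chosen on opposite genotype differences at 5 and 12 weeks in these same data. The genotype differences of the members at each age are therefore described, and neither their direction nor their place in the test over all genes is read as a result. The difference between the ages did not enter the choice, and it was tested.

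Each of the 10 libraries came from the core hypothalamus of 1 male mouse on a C57BL/6J background, bred from heterozygous parents that carry a lacZ-tagged knockout allele of *Bbs5*, tm1b(EUCOMM)Wtsi. The 12-week libraries are WT replicates B1 and B3 and, labelled *Bbs5-/-*, replicates B4, B5 and B6. The 5-week libraries are WT replicates E1 and E3 and *Bbs5-/-* replicates E4, E5 and E6. Totals were 22379066 (B1), 24065569 (B3), 21574847 (B4), 24904573 (B5), 22129502 (B6), 18013196 (E1), 18699191 (E3), 20319519 (E4), 20010244 (E5), 19866595 (E6). Levels are CPM scaled by TMM over the 10 libraries together, and 3 counts, taken as the floor, equal 0.117 to 0.169 CPM. All 38 members were detected in every library, with 4 counts as the lowest value of any member.

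The leptomeninges are the arachnoid and the pia, thin layers of fibroblasts that wrap the brain and follow its larger vessels inward as perivascular sheaths. These fibroblasts lay down collagen and small proteoglycans, make retinoic acid, and carry organic ions and amino acids between the brain and its fluid. The methods state that the brain was freed from the meninges before the micropunch, so the amount of this tissue left on a punch can differ from mouse to mouse, and in a bulk library fewer cells of a type and less RNA per cell cannot be told apart.

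*Bbs5* was read first, as a check of the labels. B1 and B3, both WT at 12 weeks, held 15 and 13.2 CPM, while B4, B5 and B6, the 12-week libraries labelled *Bbs5-/-*, held 16.3, 13.1 and 11.7 CPM. E1 and E3, both WT at 5 weeks, held 14.0 and 14.4 CPM, while E4, E5 and E6, all *Bbs5-/-*, held 5.47, 4.96 and 4.75 CPM. The 5-week groups did not overlap, and the 12-week groups did, with B4 above both WT libraries. The log2 fold change of *Bbs5-/-* over WT was -1.49 ± 0.13 (SE) at 5 weeks, with every *Bbs5-/-* library low and an edgeR adjusted p of 0.00894, which became 0.0517 without E4. At 12 weeks it was -0.041 ± 0.22 (adjusted p = 0.991), and 0.049 without B1 or 0.054 without B6. The 12-week labels are thus kept as labels, and the counts cover the whole *Bbs5* gene, so the part of the transcript that the allele leaves was not read.

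3 libraries stood apart from the others before any member was read. Across 16469 genes, B4 had a median correlation of 0.972 with the other 12-week libraries (0.961 to 0.975) and of 0.982 with the 5-week libraries (0.978 to 0.983), whereas each of the other 9 libraries was nearer to its own age. Genes are not independent of each other, so these correlations are descriptions. *Slc36a4*, an amino acid transporter of lysosomes, read 5.72 CPM in B4, 2.89 to 3.94 CPM in the 5-week libraries and 30.4 to 34.4 CPM in the other 12-week libraries. B1 held the highest summed neuronal level, 6532 CPM against 4558 to 4884 CPM in the other 12-week libraries, with the lowest level of border macrophage genes (10.4 CPM) and of pituitary genes (6.59 CPM). E1 held *Ttr*, a marker of the choroid plexus, at 388 CPM, against at most 4.70 CPM elsewhere. No label names a batch, so a difference of age cannot be told apart from a batch that only 1 age had.

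Summed over the 38 members, without a correction for length, the level was 419.8 and 1208 CPM in B1 and B3 and 1397, 2426 and 1603 CPM in B4, B5 and B6. The 5-week sums were 1406 and 2385 CPM in E1 and E3 and 868, 1029 and 891 CPM in E4, E5 and E6. B1 was thus low and B5 high at 12 weeks, and E3 was high at 5 weeks, while neither age had overlapping sums. The mean fold of the mutant label over WT was 2.22 at 12 weeks and 0.490 at 5 weeks. Leaving out B1 put the 12-week fold at 1.50 and leaving out B3 put it at 4.31, and the 5-week fold ran from 0.390 without E1 to 0.661 without E3. *Ptgds* made up 44.9% of the sum in B1 and up to 72.9% in B4. Without it the sums were 231 and 383 CPM in B1 and B3, 379, 752 and 562 CPM in B4, B5 and B6, 438 and 728 CPM in E1 and E3, and 296, 343 and 308 CPM in E4, E5 and E6. On this sum B4 lay inside the WT range at 12 weeks, just under B3, and the folds were 1.84 and 0.542.

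Member by member, 20 of 38 had every library labelled *Bbs5-/-* above both WT libraries at 12 weeks, against 7.85% of all genes tested at that age, and 30 of 38 had every *Bbs5-/-* library below both WT libraries at 5 weeks, against 17.5% of all genes. 13 members did both, against 1.08% of genes tested at both ages, and since members were chosen on this pattern the counts describe the choice. All 38 members lay above 0 at 12 weeks, with a median log2 fold change of 1.00, from 0.058 for *Bgn* to 2.88 for *Prg4*. At 5 weeks 37 lay below 0, with a median of -0.94, from -2.77 for *Myoc* to 0.34 for *Slc22a2*. The difference between the 2 differences had a median of 1.79. Leaving out 1 library moved the 12-week median to between 0.62 (B1) and 1.56 (B3), the 5-week median to between -1.24 (E1) and -0.43 (E3), and the median of their difference to between 1.32 (B1) and 2.33 (B3). The count of 20 became 33 without B3, when 32.6% of all genes did the same, and 35 without B4, when 15.4% did. 4 members crossed 0 at 12 weeks, *Lum* at -0.046 and *Slc22a2* at -0.085 without B1, *Bgn* at -0.28 without B5, and *Myoc* at -0.72 without B3 and -0.18 without B4. At 5 weeks 5 more did so, *Aebp1* at 0.20, *Foxd1* at 0.26 and *Ranbp3l* at 0.16 without E3, *Slc47a1* at 0.14 without either E1 or E4, and *Tbx18* at 0.049 without E6.

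In the edgeR test over all genes, no gene passed the adjusted threshold for genotype at 12 weeks (0.0% of 16258, with 323 under an unadjusted p of 0.05), and leaving out B5 gave 9 calls. DESeq2, to which filterByExpr was not applied, called 4 of 19921 genes, where edgeR without that filter called 1. At 5 weeks *Bbs5* was the single gene called, 0.00624% of 16023, while 2729 genes had an unadjusted p under 0.05, DESeq2 called 390 of 20167 genes without that filter, where edgeR called 263, and leaving out E3 gave 160 calls in edgeR. The interaction of genotype and age was called for 0.0% of 16469 genes, with 647 under the unadjusted threshold, 13 of 20698 called by DESeq2 without that filter, where edgeR called 1, and 113 called by edgeR with the filter and without B3.

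Differences between the WT libraries of an age were near in size to those between the labels. In 34 of 38 members B3 stood above B1, with a median of 1.02 on the log2 scale, where the median size over all genes was 0.30, and in 35 members E3 stood above E1, with a median of 0.74 against a size of 0.13 over all genes. B5 exceeded B4 in 36 members and B6 in 33. It was the highest 12-week library for 32 members, and B1 was the lowest for 32. At 5 weeks E3 was the highest for 34, while the lowest was E4 for 20, E6 for 9 and E5 for 6. Among the *Bbs5-/-* libraries at 5 weeks the members differed less, with medians of 0.29 for E5 over E4, 0.046 for E6 over E4 and 0.17 for E5 over E6. In the 12-week libraries labelled *Bbs5-/-* the median was 0.86 for B5 over B4, 0.46 for B6 over B4 and 0.43 for B5 over B6. Most members thus differed in the same direction between the WT libraries of each age.

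**Figure D1:**
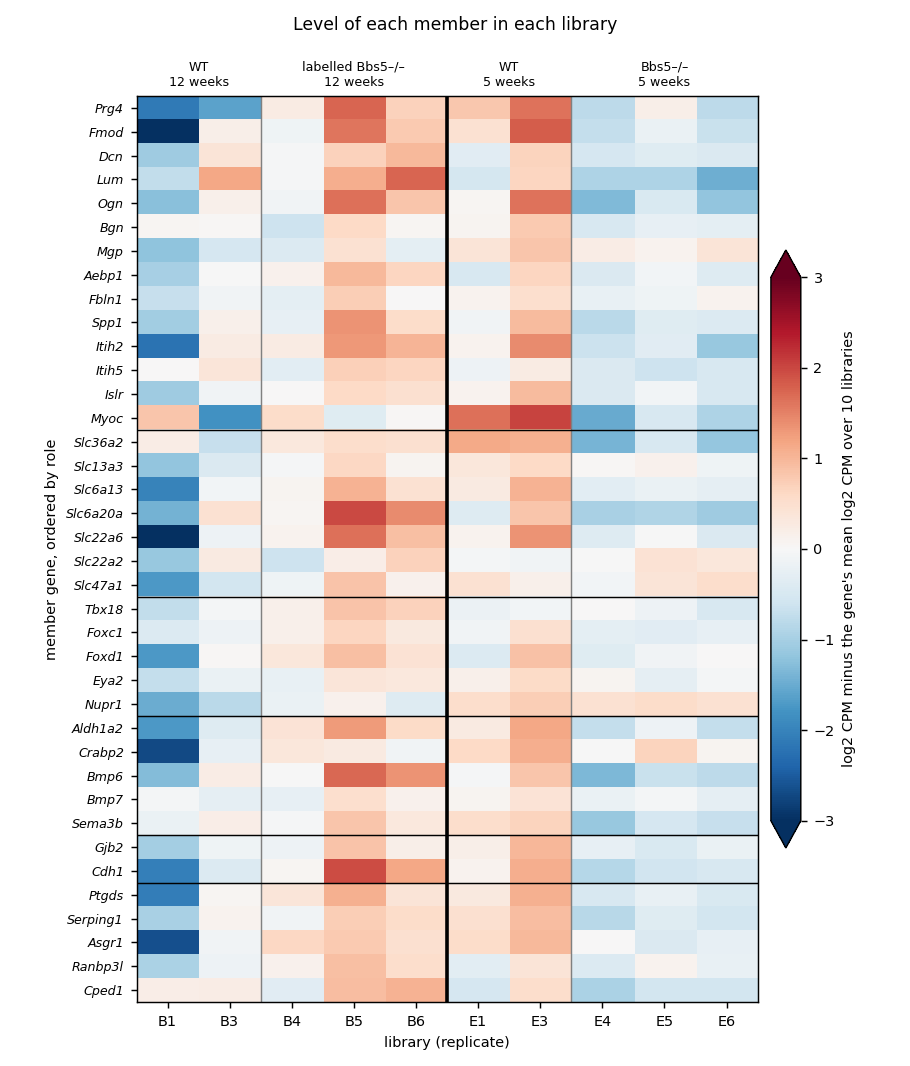
Level of each of the 38 members in each of the 10 libraries, as log2 CPM minus the mean of the gene, grouped by role. Values come from the deposited expected counts scaled by TMM.

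Extracellular matrix was the role with most members, 14, with 5 of them wholly above WT at 12 weeks, 13 wholly below it at 5 weeks and 4 both, and medians of 0.84 and -0.99. *Prg4* encodes lubricin, a proteoglycan that keeps surfaces sliding. *Prg4* read 1.20 and 1.73 CPM in B1 and B3 and 6.17, 17.7 and 8.46 CPM in B4, B5 and B6, and 9.13 and 16.1 CPM in E1 and E3 and 3.04, 5.92 and 3.05 CPM in E4, E5 and E6. B5 and E3 were its high libraries and B1 and B3 its low ones, no groups overlapped, and its log2 fold changes were 2.88 ± 0.50 at 12 weeks and -1.66 ± 0.38 at 5 weeks, the steepest 12-week value among the members. Fibromodulin, from *Fmod*, is a small leucine-rich proteoglycan that binds collagen fibrils. *Fmod* read 2.77 and 27.4 CPM in B1 and B3 and 22.3, 73.0 and 41.9 CPM in B4, B5 and B6, and 33.2 and 84.8 CPM in E1 and E3 and 14.8, 20.9 and 15.1 CPM in E4, E5 and E6. B1 was its low library, and at 12 weeks B3 stood above B4, so those groups overlapped around log2 fold changes of 1.60 ± 1.05 and -1.80 ± 0.52. *Ogn* encodes osteoglycin, of the same family. In B1 and B3 its levels were 2.72 and 7.17 CPM, in B4, B5 and B6 5.99, 20.1 and 11.5 CPM, in E1 and E3 6.76 and 19.9 CPM, and in E4, E5 and E6 2.58, 4.66 and 2.84 CPM. High values came in B5 and E3, with B4 under B3 at 12 weeks and no overlap at 5 weeks, for 1.35 ± 0.58 and -1.99 ± 0.57.

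Decorin, from *Dcn*, another proteoglycan of collagen fibrils, was lowest in B1 (7.83 CPM) and highest in B6 (32.1 CPM), with B4 (15.8 CPM) below B3 (21.2 CPM). Its 5-week values were 13 and 25.8 CPM in E1 and E3 and 11.5, 12.7 and 12.1 CPM in E4, E5 and E6, so that E1 lay just above the *Bbs5-/-* libraries, and the log2 fold changes were 0.77 ± 0.45 and -0.68 ± 0.29. Lumican, the product of *Lum*, spaces the fibrils of the cornea. *Lum* read 0.691 and 2.55 CPM in B1 and B3 and 1.11, 2.42 and 3.86 CPM in B4, B5 and B6, and 0.789 and 1.78 CPM in E1 and E3 and 0.607, 0.602 and 0.413 CPM in E4, E5 and E6. The 12-week groups overlapped, since B3 stood above B4 and B5, and the 5-week groups did not, and 0.60 ± 0.63 at 12 weeks became -0.046 without B1, beside -1.25 ± 0.44 at 5 weeks. Biglycan, from *Bgn*, showed no separation at 12 weeks. It read 20.6 and 20.4 CPM in B1 and B3 and 12.9, 29.9 and 20.7 CPM in B4, B5 and B6, and 21.1 and 33.8 CPM in E1 and E3 and 14.1, 16.6 and 16.2 CPM in E4, E5 and E6. B4 was its lowest and B5 its highest 12-week library, and the fold changes were 0.058 ± 0.32 at 12 weeks, -0.28 without B5, and -0.81 ± 0.20 at 5 weeks.

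Matrix Gla protein, encoded by *Mgp*, keeps soft tissue from calcifying. *Mgp* read 5.53 and 9.06 CPM in B1 and B3 and 9.67, 17.6 and 10.4 CPM in B4, B5 and B6, and 16.7 and 22.6 CPM in E1 and E3 and 14.8, 13.8 and 16.6 CPM in E4, E5 and E6. B1 was low and B5 high, no groups overlapped at either age, and the log2 fold changes were 0.79 ± 0.35 and -0.38 ± 0.14. *Itih2* encodes a heavy chain of the inter-alpha-trypsin inhibitor, which binds hyaluronan. Its levels ran 1.29 and 7.08 CPM in B1 and B3 and 7.10, 14.9 and 12.3 CPM in B4, B5 and B6, and 6.48 and 16.2 CPM in E1 and E3 and 3.85, 4.76 and 2.74 CPM in E4, E5 and E6. B3 and B4 were almost level, B1 was far below them, E3 was high, and the log2 fold changes were 1.45 ± 0.67 and -1.58 ± 0.45. *Itih5*, a second heavy chain, had B4 as its lowest 12-week library and overlapping groups at that age. Values were 41.2 and 52.8 CPM in B1 and B3 and 32.8, 67.4 and 63.6 CPM in B4, B5 and B6, and 36.5 and 48.7 CPM in E1 and E3 and 30.4, 26.7 and 29.2 CPM in E4, E5 and E6, with 0.22 ± 0.31 at 12 weeks and -0.57 ± 0.12 at 5 weeks. *Islr*, a leucine-rich protein of stromal cells, was 6.50 and 12.6 CPM in B1 and B3, 13.7, 20.7 and 19.0 CPM in B4, B5 and B6, 14.7 and 26.4 CPM in E1 and E3, and 10.1, 12.8 and 9.66 CPM in E4, E5 and E6. The groups did not overlap at either age, B1 was low and E3 high, and the differences were 0.90 ± 0.32 and -0.93 ± 0.27.

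Myocilin, a secreted glycoprotein first known from the drainage tissue of the eye, set *Myoc* apart from the other matrix genes. It read 17.0 and 2.68 CPM in B1 and B3 and 14.0, 7.34 and 9.73 CPM in B4, B5 and B6, so WT held both the highest and the lowest 12-week value. At 5 weeks it read 29.9 and 38.6 CPM in E1 and E3 and 3.34, 6.82 and 4.96 CPM in E4, E5 and E6, with both WT libraries far above the others, and the log2 fold changes were 0.077 ± 0.70 and -2.77 ± 0.27, the steepest 5-week value of the members. *Aebp1*, whose secreted product binds collagen, was lowest in B1 at 22.2 CPM and highest in B5 at 86.8 CPM, and B4 (47.9 CPM) cleared B3 (43.4 CPM). At 5 weeks E3 (68.6 CPM) stood alone above values of 31.4 to 41.9 CPM in which E1 was the lowest, and the fold changes were 1.05 ± 0.34 and -0.47 ± 0.40, the latter 0.20 without E3. *Fbln1* encodes fibulin 1, a glycoprotein of elastic fibers and basement membranes. It ran from 7.93 CPM in B1 to 21.3 CPM in B5 with B4 (10.4 CPM) under B3 (11.8 CPM), and at 5 weeks E1 (13.8 CPM) and E6 (13.7 CPM) nearly met, for 0.59 ± 0.34 and -0.41 ± 0.15. Osteopontin, from *Spp1*, a secreted phosphoprotein of bone and immune cells, ran from 3.04 CPM in B1 to 16.0 CPM in B5 with B4 (5.28 CPM) under B3 (6.96 CPM). Its 5-week range was 3.59 CPM in E4 to 12.2 CPM in E3 without overlap, and its log2 fold changes were 1.03 ± 0.51 and -1.05 ± 0.31.

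The 7 solute carriers, with 5 wholly above WT at 12 weeks, 5 wholly below it at 5 weeks and 4 both, had medians of 1.32 and -0.98. *Slc22a6* encodes OAT1, which takes up organic anions. *Slc22a6* read 0.645 and 5.19 CPM in B1 and B3 and 6.17, 18.1 and 10.7 CPM in B4, B5 and B6, and 6.14 and 14.6 CPM in E1 and E3 and 4.40, 5.67 and 4.24 CPM in E4, E5 and E6. B1 was the low library, B5 and E3 the high ones, the groups were separate at both ages though E5 came close to E1, and the log2 fold changes were 1.99 ± 0.86 and -1.13 ± 0.37. *Slc6a13* encodes GAT2, a transporter of GABA and taurine at the brain's borders. Readings were 3.13 and 12.0 CPM in B1 and B3 and 13.3, 26 and 17.3 CPM in B4, B5 and B6, and 15.3 and 26 CPM in E1 and E3 and 10.2, 10.9 and 10.5 CPM in E4, E5 and E6. B1 was again low, E3 high, no groups overlapped, and the differences were 1.32 ± 0.56 and -0.98 ± 0.20. *Slc13a3* carries dicarboxylates with sodium. Its values were 13.5 and 22.7 CPM in B1 and B3 and 29.8, 47.0 and 32.7 CPM in B4, B5 and B6, and 38.7 and 46.5 CPM in E1 and E3 and 31.3, 33.5 and 28.3 CPM in E4, E5 and E6, separate at both ages, with 1.01 ± 0.29 and -0.46 ± 0.10. A carrier of small amino acids, *Slc36a2*, differed from these in that B3 and not B1 was its lowest 12-week library. It read 2.03 and 1.07 CPM in B1 and B3 and 2.17, 2.50 and 2.41 CPM in B4, B5 and B6, and 3.83 and 3.62 CPM in E1 and E3 and 0.658, 1.25 and 0.775 CPM in E4, E5 and E6. B1 and B4 were close, the 5-week groups were far apart, and the log2 fold changes were 0.62 ± 0.36 and -2.05 ± 0.30.

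*Slc6a20a* carries proline and related imino acids. *Slc6a20a* read 3.09 and 11.3 CPM in B1 and B3 and 8.69, 32.7 and 22.1 CPM in B4, B5 and B6, and 6.31 and 14.7 CPM in E1 and E3 and 4.25, 4.41 and 3.98 CPM in E4, E5 and E6. B5 and B6 were high, B4 stood under B3, the 5-week groups were separate, and the log2 fold changes were 1.56 ± 0.74 and -1.32 ± 0.34. *Slc47a1*, or MATE1, exports organic cations. *Slc47a1* read 0.783 and 1.77 CPM in B1 and B3 and 2.35, 4.65 and 2.85 CPM in B4, B5 and B6, and 3.55 and 2.87 CPM in E1 and E3 and 2.43, 3.36 and 3.72 CPM in E4, E5 and E6. At 12 weeks B1 was low and no library labelled *Bbs5-/-* reached down to WT, at 5 weeks the groups overlapped throughout, and the log2 fold changes were 1.36 ± 0.46 and -0.021 ± 0.25, the latter 0.14 without E1 and without E4. *Slc22a2*, or OCT2, which takes up organic cations, was near the floor in every library. It read 0.184 and 0.494 CPM in B1 and B3 and 0.266, 0.469 and 0.658 CPM in B4, B5 and B6, and 0.395 and 0.379 CPM in E1 and E3 and 0.405, 0.551 and 0.517 CPM in E4, E5 and E6. Groups overlapped at 12 weeks, where B4 lay under B3, and at 5 weeks it was the single member whose *Bbs5-/-* libraries all stood above WT, for 0.43 ± 0.63 (-0.085 without B1) and 0.34 ± 0.47.

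The 5 genes of transcription had medians of 0.95 and -0.46, with 4 wholly above WT at 12 weeks, 2 wholly below it at 5 weeks and 1 both. *Foxc1*, a forkhead factor that the meninges need in development, read 6.31 and 7.58 CPM in B1 and B3 and 9.45, 13.2 and 10.4 CPM in B4, B5 and B6, and 7.89 and 11.7 CPM in E1 and E3 and 6.93, 6.67 and 7.08 CPM in E4, E5 and E6. Its groups were separate at both ages, B5 and E3 were high, and the log2 fold changes were 0.67 ± 0.25 and -0.51 ± 0.18. *Nupr1*, a small chromatin protein induced by stress, read 1.66 and 2.63 CPM in B1 and B3 and 4.08, 5.11 and 3.55 CPM in B4, B5 and B6, and 6.71 and 7.74 CPM in E1 and E3 and 6.43, 6.82 and 6.41 CPM in E4, E5 and E6. B1 was its low library, every 5-week library exceeded every 12-week library, E4 and E6 lay under E1 while E5 lay over it, and the genotype differences were 0.98 ± 0.33 and -0.14 ± 0.15. *Foxd1*, a forkhead factor of stromal cells, ran from 1.29 CPM in B1 to 7.96 CPM in B5 without overlap and from 3.21 CPM in E1 to 7.79 CPM in E3 with overlap, for 1.17 ± 0.47 and -0.52 ± 0.34, the latter 0.26 without E3. *Tbx18*, a T-box factor of mural cells and fibroblasts, ran from 1.48 CPM in B1 to 4.45 CPM in B5 without overlap and stayed between 1.76 and 2.48 CPM at 5 weeks with overlap, for 0.95 ± 0.36 and -0.078 ± 0.26, the latter 0.049 without E6. *Eya2*, a coactivator that is also a phosphatase, ran from 2.67 CPM in B1 to 5.66 CPM in B5 with B4 just under B3, and from 3.66 CPM in E5 to 6.60 CPM in E3 without overlap, for 0.61 ± 0.31 and -0.46 ± 0.20.

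Among the 5 members of retinoid handling and signaling, 2 were wholly above WT at 12 weeks, 4 wholly below it at 5 weeks and 1 both, with medians of 1.18 and -1.30. *Aldh1a2* makes retinoic acid from retinal. *Aldh1a2* read 2.72 and 6.88 CPM in B1 and B3 and 11.9, 21.7 and 13.4 CPM in B4, B5 and B6, and 10.9 and 20.2 CPM in E1 and E3 and 5.46, 8.07 and 5.48 CPM in E4, E5 and E6. B1 was low, B5 and E3 were high, the groups were separate at both ages, and the log2 fold changes were 1.71 ± 0.43 and -1.30 ± 0.31. *Crabp2*, which carries retinoic acid to the nucleus, was 0.553 and 3.01 CPM in B1 and B3 and between 3.33 and 4.57 CPM in the libraries labelled *Bbs5-/-*, without overlap, and at 5 weeks E5 (5.71 CPM) passed E1 (5.47 CPM), for 1.18 ± 0.56 and -0.59 ± 0.24. *Bmp6* encodes a ligand of the bone morphogenetic protein family. *Bmp6* read 2.07 and 5.97 CPM in B1 and B3 and 5.10, 17.0 and 13 CPM in B4, B5 and B6, and 5.01 and 9.20 CPM in E1 and E3 and 2.02, 3.21 and 3.00 CPM in E4, E5 and E6. B1 was low, B5 and B6 high, B4 under B3, the 5-week groups separate, and the differences 1.54 ± 0.61 and -1.38 ± 0.29. *Bmp7*, a second ligand, ran from 19.4 CPM in B3 to 33.2 CPM in B5 with overlap and from 19.4 CPM in E6 to 31.3 CPM in E3 without overlap, for 0.33 ± 0.25 and -0.43 ± 0.12. The secreted guidance cue *Sema3b* ran from 5.53 CPM in B1 to 11.1 CPM in B5 with overlap, and at 5 weeks its WT libraries (9.13 and 10.1 CPM) were well above E4, E5 and E6 (2.88, 4.41 and 3.88 CPM), for 0.39 ± 0.31 and -1.37 ± 0.19.

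Of the 2 junction genes 1 was wholly above WT at 12 weeks and both were wholly below it at 5 weeks, with medians of 1.57 and -1.13. *Cdh1*, the E-cadherin of arachnoid barrier cells, read 0.507 and 1.56 CPM in B1 and B3 and 2.17, 8.16 and 4.69 CPM in B4, B5 and B6, and 2.25 and 4.44 CPM in E1 and E3 and 1.16, 1.40 and 1.50 CPM in E4, E5 and E6. B5 was far above the rest, B1 far below, the groups were separate, and the log2 fold changes were 2.27 ± 0.66 and -1.31 ± 0.32. *Gjb2* encodes connexin 26, a gap junction protein of the leptomeninges. Its levels were 6.82 and 12.5 CPM in B1 and B3 and 12.5, 24.9 and 15.5 CPM in B4, B5 and B6, and 15.4 and 27.5 CPM in E1 and E3 and 11.6, 10.0 and 11.9 CPM in E4, E5 and E6, with B4 a little under B3 and no overlap at 5 weeks, for 0.87 ± 0.37 and -0.95 ± 0.24.

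The last 5 members, enzymes, inhibitors and others, had medians of 1.05 and -0.99, with 3 wholly above WT at 12 weeks, 4 wholly below it at 5 weeks and 2 both. *Ptgds* makes prostaglandin D2 and, as a lipocalin, is a main protein of cerebrospinal fluid. *Ptgds* read 188 and 825 CPM in B1 and B3 and 1018, 1675 and 1042 CPM in B4, B5 and B6, and 968 and 1657 CPM in E1 and E3 and 572, 685 and 583 CPM in E4, E5 and E6. B1 was low, B5 and E3 were high and almost equal, B6 and B4 stood between, the groups were separate at both ages, and the log2 fold changes were 1.30 ± 0.62 and -1.10 ± 0.27. *Asgr1*, a subunit of the asialoglycoprotein receptor best known from liver, read 0.184 and 1.07 CPM in B1 and B3 and 1.77, 1.99 and 1.62 CPM in B4, B5 and B6, and 1.69 and 2.27 CPM in E1 and E3 and 1.16, 0.852 and 0.982 CPM in E4, E5 and E6. B1 was near the floor, the groups were separate, and the differences were 1.49 ± 0.59 and -0.99 ± 0.31. *Serping1* encodes the inhibitor of complement C1. *Serping1* read 6.18 and 13.1 CPM in B1 and B3 and 11.2, 20.3 and 17.8 CPM in B4, B5 and B6, and 16.9 and 23.0 CPM in E1 and E3 and 6.83, 9.43 and 8.22 CPM in E4, E5 and E6. B4 lay under B3, the 5-week groups were separate, and the log2 fold changes were 0.78 ± 0.37 and -1.30 ± 0.17. *Ranbp3l*, a Ran-binding protein, ran from 4.01 CPM in B1 to 14.6 CPM in B5 without overlap and from 5.87 CPM in E4 to 10.2 CPM in E3 with overlap, for 1.05 ± 0.34 and -0.24 ± 0.23, the latter 0.16 without E3. *Cped1*, of which little is known, read 3.04 and 3.09 CPM in B1 and B3 and 2.08, 5.00 and 5.44 CPM in B4, B5 and B6, and 1.86 and 3.84 CPM in E1 and E3 and 1.37, 1.80 and 1.81 CPM in E4, E5 and E6, with B4 its lowest 12-week library and 0.45 ± 0.41 and -0.79 ± 0.33.

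**Figure D2:**
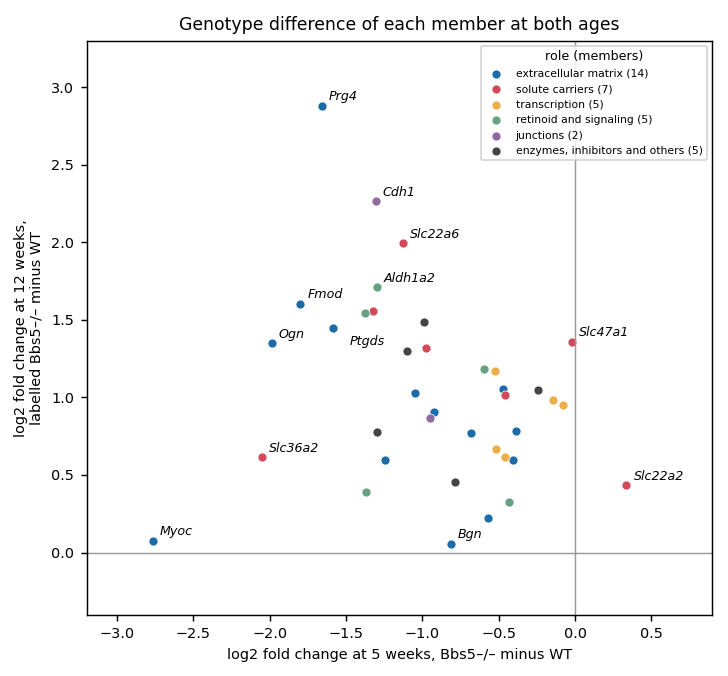
Log2 fold change of the mutant label over WT at 5 weeks (horizontal) and at 12 weeks (vertical) for each of the 38 members, colored by role. Members were chosen partly on this pattern, so their place in the plot describes the choice.

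In the age contrast, weighted by group size, edgeR called 4 members higher at 12 weeks, where 25.4% of all 16469 genes were, and 2 lower, where 22.2% were. The members called came to 15.8% and all genes called to 47.6%, and the standard errors of the members were larger, with a median of 0.28 against 0.13. The median log2 difference of the members was 0.084, with 24 above 0 and 14 below. This median turned below 0 without B5 (-0.093), E4 (-0.017) or B6 (-0.0013) and with equal weights for the genotypes (-0.078), and reached 0.40 without B1. With those equal weights edgeR called 2 members higher and 4 lower, so the balance of the members' calls turned around. Over all genes it then called 4133 higher and 3640 lower. Members called numbered from 2 without E5, where 6655 of all 16422 genes were called, to 10 without B1, where 7791 of 16727 were. Leaving out B4, the library nearer to the 5-week ones, gave 9 members called, 6 higher and 3 lower, while calls over all genes went from 4183 higher and 3655 lower to 4854 and 4613.

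*Nupr1* was lower in all 5 of the 12-week libraries than in any 5-week library (log2 -1.07 ± 0.16, adjusted p = 6.4e-04), and passed in all 15 alternatives. *Mgp* was lower in 4 of the 5 12-week libraries than in any 5-week library, with B5 the exception (log2 -0.73 ± 0.19, adjusted p = 0.0100), and it too passed in all 15. *Lum* was higher (log2 1.44 ± 0.44, adjusted p = 0.0192), with 3 of the 5 12-week libraries above every 5-week one, and it did not pass without B6, E5 or E6, where the adjusted p reached 0.0659. *Itih5* was higher (log2 0.61 ± 0.18, adjusted p = 0.0174), also with 3 of 5 above every 5-week library, and did not pass without E5 or E6 (0.0636 at most). *Cped1* was higher (log2 0.84 ± 0.29, adjusted p = 0.0310), with 2 of the 5 above every 5-week library, and passed in 9 of 15 alternatives, not passing with genotypes weighted equally or without B5, B6, E4, E5 or E6 (0.0944 at most). *Slc6a20a* was higher (log2 1.18 ± 0.43, adjusted p = 0.0454), with 2 of the 5 above every 5-week library, and it passed in 6 of 15, with an adjusted p of up to 0.180 over all settings and up to 0.155 with a library left out. *Lum*, *Itih5*, *Slc6a20a* and *Cped1* thus depend on which libraries enter, and the last 2 also on the weights of the genotypes. *Slc6a20a* depends on the filter as well, and it did not pass with DESeq2 either, where filter and test changed at once. The difference between ages cannot be told apart from any batch shared by an age.

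Levels can be set side by side between genes once divided by length. Per kilobase of its longest transcript *Ptgds* stood at 694 CPM over the 10 libraries, from 142 to 1262, where *Mbp*, of myelin, stood at 706, *Actb* at 662 and *Snap25*, of neurons, at 222. In the same mean *Mgp* stood at 19.1, *Aebp1* at 12.5, *Fmod* at 10.8 and *Slc13a3* at 9.20, while *Col1a2*, a collagen of the same cells, stood at 7.03 and the astrocyte gene *Aqp4* at 17.3. *Slc22a2* was last among the members in this mean at 0.197. The order differed between groups, as *Aebp1* (17.7) was above *Mgp* (17.5) in the 12-week libraries labelled *Bbs5-/-*, and *Fmod* (18.9) and *Myoc* (16.5) were above *Aebp1* (13.1) in WT at 5 weeks. With the median transcript in place of the longest, 8 of the first 10 members were the same, while *Ptgds* stood at 1110. The genes outside the members were divided by their longest transcript only, so how near *Ptgds* comes to *Mbp* or *Actb* depends on that choice.

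A further 26 genes of leptomeningeal fibroblasts, none of them members, were read as a list. Like the other lists it was chosen with earlier results of these data known, so its genotype differences are a description. Over all genes tested, 50.2% lay above 0 at 12 weeks and 49.05% at 5 weeks. Those under an unadjusted p of 0.05 in edgeR were 323 of 16258 and 2729 of 16023. On the list 25 of 26 lay above 0 at 12 weeks, with a median of 0.56 that was 0.17 without B5, and 22 of 25 lay below 0 at 5 weeks, with a median of -0.56 that was -0.15 without E3. Their summed level was 485 and 547 CPM in B1 and B3, 517, 874 and 657 CPM in B4, B5 and B6, 666 and 839 CPM in E1 and E3, and 515, 525 and 519 CPM in E4, E5 and E6, highest in B5 and E3 like the members. EdgeR called 0 of them for genotype at either age, with 5 at 12 weeks and 13 at 5 weeks under an unadjusted p of 0.05, and DESeq2 called 0 and 6, these being *Igf2*, *Igfbp2*, *Zic4*, *Apod*, *Pcolce* and *Fn1*. Between the ages edgeR called 6 higher and 2 lower at 12 weeks, with *Pdgfra*, the receptor that marks fibroblasts and oligodendrocyte precursors, higher (log2 0.56 ± 0.11, adjusted p = 0.00181). *Cyp1b1* was higher (log2 1.51 ± 0.25, adjusted p = 8.6e-04) and *S100a6* lower (log2 -0.82 ± 0.19, adjusted p = 0.00539), and each of the 3 passed in all 15 alternatives. *Apod* was the most abundant of the list, which here and below is by CPM without length.

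Of the collagens 17 of 18 lay above 0 at 12 weeks (median 0.60, 0.33 without B1 and 0.94 without B3) and 12 below 0 at 5 weeks (median -0.16, -0.24 without E5 and -0.085 without E6). Sums of 360.4 and 552 CPM in B1 and B3 and 687, 639 and 566 CPM in B4, B5 and B6 put B4 first, and the 5-week sums ran from 595 CPM in E6 to 676 CPM in E3, a narrower range than the members had. EdgeR called 0 of them for genotype at either age, with 5 at 12 weeks and 8 at 5 weeks under an unadjusted p of 0.05, and DESeq2 called 0 and 5, namely *Col1a1*, *Col1a2*, *Col3a1*, *Col15a1* and *Col18a1*. Between ages *Col4a6* and *Col8a1* were called higher at 12 weeks and *Col15a1* lower (-0.46 ± 0.11, adjusted p = 0.00711), *Col4a6* not without B6, *Col8a1* not in 8 settings and *Col15a1* not without E5 or E6. *Col4a2* was the most abundant of them. Small leucine-rich proteoglycans outside the members numbered 12, with *Kera* and *Epyc* at or under the floor in every library and *Prelp* most abundant. 5 of 9 of those tested lay above 0 at 12 weeks (median 0.030, -0.034 without B5 and 0.34 without B1) and 6 of 10 below 0 at 5 weeks (median -0.030, -0.32 without E5 and 0.12 without E4), and edgeR called 0 of them for genotype at either age, with 0 at 12 weeks and 3 at 5 weeks under an unadjusted p of 0.05, and DESeq2 called 0 and 0. The sums were 83.0 and 68.2 CPM in B1 and B3, 71.5, 92.4 and 99.9 CPM in B4, B5 and B6, 54.1 and 75.5 CPM in E1 and E3, and 47.4, 62.3 and 50.0 CPM in E4, E5 and E6. *Prelp* was higher at 12 weeks (log2 1.01 ± 0.15, adjusted p = 6.3e-04) and *Omd* lower (log2 -1.31 ± 0.22, adjusted p = 8.8e-04), both in all 15 alternatives, and *Ecm2* was called higher but not without E4, E5 or E6.

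The retinoic acid pathway outside the members, 19 genes with *Rxra* most abundant and *Cyp26c1* at or under the floor, had 12 of 17 above 0 at 12 weeks (median 0.12, -0.066 without B1 and 0.23 without B3) and 13 of 16 below 0 at 5 weeks (-0.17). Its sum lay between 252 CPM in B1 and 336 CPM in E1, and edgeR called 0 of them for genotype at either age, with 1 at 12 weeks and 4 at 5 weeks under an unadjusted p of 0.05, and DESeq2 called 0 and 3 (*Aldh1a1*, *Crabp1* and *Cyp26b1*). For age 6 were higher and 4 lower, among the higher *Stra6*, the retinol receptor (1.03 ± 0.18, adjusted p = 0.00124). The 29 genes of the BMP pathway, led by *Bmpr2*, had 18 of 29 above 0 at 12 weeks (median 0.16, 0.031 without B1 and 0.34 without B3) and 20 of 28 below at 5 weeks (-0.098, -0.064 without E5), with sums from 589 CPM in E5 to 788 CPM in B1. Here edgeR called 0 of them for genotype at either age, with 2 at 12 weeks and 6 at 5 weeks under an unadjusted p of 0.05, and DESeq2 called 0 and 1 (*Chrd*). Age gave 9 higher and 6 lower, the lower ones with *Id1* (-0.93 ± 0.16, adjusted p = 9.8e-04), *Id2* (-0.70 ± 0.083, adjusted p = 3.9e-04) and *Id3* (-0.99 ± 0.14, adjusted p = 5.4e-04), targets of the pathway that passed in all 15 alternatives. Among the 9 higher was *Bmpr2* (1.03 ± 0.19, edgeR adjusted p = 0.0015), which passed in all 15 too. Solute carriers related to the members, 14 genes with *Slc6a11* most abundant, had 8 of 12 above 0 at 12 weeks (median 0.18, -0.094 without B1 and 0.40 without B3) and 9 of 12 below at 5 weeks (-0.19, -0.11 without E6). Sums ran from 967 CPM in B4 to 1549 CPM in B5, edgeR called 0 of them for genotype at either age, with 0 at 12 weeks and 4 at 5 weeks under an unadjusted p of 0.05, and DESeq2 called 0 and 0, and for age 1 was lower and 2 were higher, of them *Slc36a4* (log2 2.92 ± 0.42, adjusted p = 6.8e-04).

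**Figure D3:**
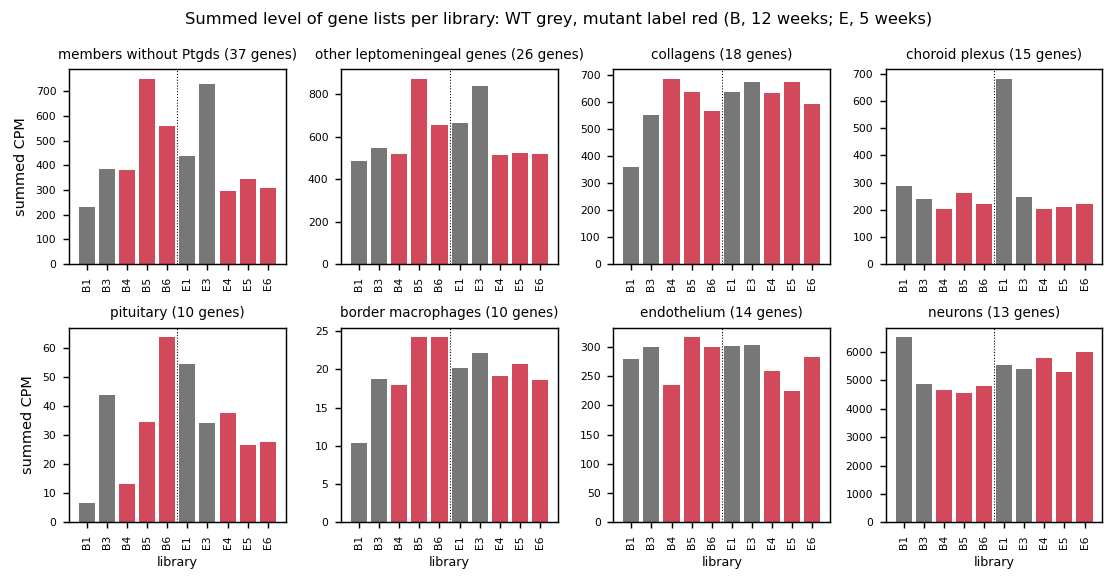
Summed CPM in each library of the members without *Ptgds* and of 7 lists of other genes. Bars show single libraries of the 4 groups.

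Cells of the brain's borders, ventricles and vessels, and of the pituitary, were read next, and for none of them was a part in the result tested. Border macrophages, 10 genes with *Stab1* most abundant and *Cd209f* at or under the floor, summed to 10.4 and 18.7 CPM in B1 and B3, 17.9, 24.2 and 24.2 CPM in B4, B5 and B6, 20.2 and 22.1 CPM in E1 and E3, and 19.1, 20.7 and 18.6 CPM in E4, E5 and E6. 6 of 7 tested lay above 0 at 12 weeks (median 0.93, 0.46 without B5 and 1.59 without B3) and 6 of 7 below at 5 weeks (-0.36, -0.66 without E1 and -0.016 without E3), edgeR called 0 of them for genotype at either age, with 3 at 12 weeks and 0 at 5 weeks under an unadjusted p of 0.05, and DESeq2 called 0 and 0, and age called 0 of 7 in edgeR, with 1 under the unadjusted threshold and 0 called by DESeq2. They were lowest in B1, as the members were, and varied little at 5 weeks. Pituitary genes, 10 with *Pou1f1* at or under the floor, summed to 6.59 and 43.9 CPM in B1 and B3, 13.2, 34.6 and 63.7 CPM in B4, B5 and B6, 54.3 and 34.3 CPM in E1 and E3, and 37.5, 26.6 and 27.5 CPM in E4, E5 and E6. 7 of 7 were above 0 at 12 weeks (median 0.21, -0.056 without B1 and 2.85 without B3) and 3 of 7 below at 5 weeks (0.0059, -0.34 without E1 and 0.47 without E3), edgeR called 0 of them for genotype at either age, with 0 at 12 weeks and 0 at 5 weeks under an unadjusted p of 0.05, and DESeq2 called 0 and 0, and age called 0 of 8 in edgeR, with 0 under the unadjusted threshold and 0 by DESeq2. The choroid plexus, 15 genes, summed to 286 and 239 CPM in B1 and B3, 204, 260 and 221 CPM in B4, B5 and B6, 684 and 247 CPM in E1 and E3, and 202, 209 and 220.5 CPM in E4, E5 and E6, with *Enpp2* most abundant over the libraries and *Ttr* lifting E1. Without *Ttr* the sums lay between 200 CPM in E4 and 295 CPM in E1. 6 of 13 lay above 0 at 12 weeks (median -0.049, 0.47 without B1) and 11 of 13 below at 5 weeks (-0.53, -0.86 without E3 and 0.21 without E1). EdgeR called 0 of them for genotype at either age, with 1 at 12 weeks and 3 at 5 weeks under an unadjusted p of 0.05, and DESeq2 called 0 and 1 (*Kl*). For age edgeR called 2 higher, *Kl* (log2 0.50, adjusted p = 0.013) and *Prlr* (log2 0.44, adjusted p = 0.0178). It called 3 lower, among them *Sostdc1* (log2 -0.79 ± 0.22, adjusted p = 0.0126).

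Ependyma, 8 genes led by *Foxj1*, had 8 of 8 above 0 at 12 weeks (median 0.58, 0.32 without B1) and 2 of 8 below at 5 weeks (median 0.29, 0.16 without E1), with sums from 88.2 CPM in B1 to 279 CPM in E5. EdgeR called 0 of them for genotype at either age, with 1 at 12 weeks and 2 at 5 weeks under an unadjusted p of 0.05, and DESeq2 called 0 and 0, and 7 of 8 were lower at 12 weeks, *Foxj1* (log2 -0.85 ± 0.13, adjusted p = 6.2e-04), with 1 higher. Tanycytes, 10 genes led by *Col23a1*, had 8 of 10 above 0 at 12 weeks (median 0.26, 0.11 without B6) and 9 of 10 below at 5 weeks (-0.55, -0.32 without E6), sums from 98.5 CPM in E6 to 312 CPM in B6, and edgeR called 0 of them for genotype at either age, with 1 at 12 weeks and 5 at 5 weeks under an unadjusted p of 0.05, and DESeq2 called 0 and 1 (*Gpr50*). Age gave 5 higher and 0 lower in edgeR, *Gpr50* (log2 1.74 ± 0.19, adjusted p = 3.9e-04). Endothelium, 14 genes led by *Cldn5*, had 8 of 14 above 0 at 12 weeks (median 0.039, -0.073 without B1 and 0.15 without B3) and 12 of 14 below at 5 weeks (-0.30). The sums stayed between 225 CPM in E5 and 317 CPM in B5, edgeR called 0 of them for genotype at either age, with 0 at 12 weeks and 8 at 5 weeks under an unadjusted p of 0.05, and DESeq2 called 0 and 4 (*Cdh5*, *Kdr*, *Itm2a* and *Vwf*), and age gave 5 higher and 4 lower, *Flt1* (log2 0.83 ± 0.18, adjusted p = 0.00304) and *Cldn5* (log2 -0.62 ± 0.12, adjusted p = 0.00213). Mural cells, 12 genes led by *Vtn*, had 8 of 12 above 0 at 12 weeks (median 0.16, -0.043 without B1 and 0.42 without B3) and 8 of 12 below at 5 weeks (-0.25, -0.15 without E3), with sums from 209 CPM in B1 to 353 CPM in E3. In this list edgeR called 0 of them for genotype at either age, with 0 at 12 weeks and 4 at 5 weeks under an unadjusted p of 0.05, and DESeq2 called 0 and 3 (*Rgs5*, *Vtn* and *Tagln*), and age gave 2 higher and 5 lower, *Rgs5* (log2 1.53 ± 0.24, adjusted p = 6.5e-04) and *Vtn* (log2 -0.54 ± 0.13, adjusted p = 0.00481).

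Lists of cells inside the tissue, and of blood, came last, and a part of theirs in the result was likewise not tested. Neurons, 13 genes led by *Snap25*, had 3 of 13 above 0 at 12 weeks (median -0.28, -0.042 without B1) and 5 of 13 below at 5 weeks (0.13, 0.068 without E3), with 5-week sums of 5295 to 6001 CPM, edgeR called 0 of them for genotype at either age, with 1 at 12 weeks and 2 at 5 weeks under an unadjusted p of 0.05, and DESeq2 called 0 and 0, and 0 were higher and 4 lower with age in edgeR, *Tubb3* (log2 -0.97 ± 0.12, adjusted p = 4.0e-04). Hypothalamic neurons, 17 genes led by *Avp*, had 10 of 17 above 0 at 12 weeks (median 0.016, -0.21 without B4 and 0.17 without B6) and 10 below at 5 weeks (-0.11, -0.19 without E1 and 0.11 without E3), with sums from 1269 CPM in B1 to 3704 CPM in E6, 2508 CPM in B4 being the highest at 12 weeks. EdgeR called 0 of them for genotype at either age, with 2 at 12 weeks and 5 at 5 weeks under an unadjusted p of 0.05, and DESeq2 called 0 and 1 (*Agrp*), and age gave 2 higher and 8 lower, *Crh* (log2 -2.65 ± 0.27, adjusted p = 3.6e-04) and *Hcrt* (log2 -2.65 ± 0.43, adjusted p = 0.00154). Astrocytes, 12 genes led by *Aldoc*, had 9 of 12 above 0 at 12 weeks (median 0.11, 0.036 without B5) and 11 below at 5 weeks (-0.24, -0.14 without E1), sums from 2752 CPM in B6 to 3926 CPM in E1, edgeR called 0 of them for genotype at either age, with 0 at 12 weeks and 7 at 5 weeks under an unadjusted p of 0.05, and DESeq2 called 0 and 5 (*Aqp4*, *Gfap*, *Slc1a2*, *Gja1* and *Slc4a4*), and 5 were lower with age, *S100b* (log2 -1.10 ± 0.15, adjusted p = 4.5e-04). Oligodendrocytes, 12 genes led by *Mbp*, had 3 of 12 above 0 at 12 weeks (median -0.17, -0.41 without B3 and 0.085 without B1) and 11 below at 5 weeks (-0.25, -0.42 without E6 and -0.062 without E5), sums of 3098 to 4810 CPM at 12 weeks and 6117 to 10070 CPM at 5 weeks, and 9 lower with age, *Mbp* (log2 -1.28 ± 0.19, adjusted p = 5.5e-04). Here too edgeR called 0 of them for genotype at either age, with 0 at 12 weeks and 1 at 5 weeks under an unadjusted p of 0.05, and DESeq2 called 0 and 0. Microglia, 12 genes, had 11 of 12 above 0 at 12 weeks (median 0.31, -0.025 without B1 and 0.70 without B3) and 1 below at 5 weeks (median 0.24, 0.12 without E1), with sums from 206 CPM in B1 to 344 CPM in B4. Here edgeR called 0 of them for genotype at either age, with 0 at 12 weeks and 3 at 5 weeks under an unadjusted p of 0.05, and DESeq2 called 0 and 0. Age gave 3 higher in edgeR, *Sall1* (log2 0.58, adjusted p = 0.00374), *P2ry12* (log2 0.48, adjusted p = 0.0111) and *Itgam* (log2 0.38, adjusted p = 0.0425). *Sall1* and *P2ry12* passed in all 15 alternatives and *Itgam* in 7. The 1 lower was *Aif1* (log2 -0.78 ± 0.17, adjusted p = 0.00413). Genes of red blood cells, 7 led by *Hba-a1*, had 4 of 5 tested above 0 at 12 weeks (median 0.58, 0.32 without B4) and 0 of 4 below at 5 weeks (median 0.43, 0.21 without E3 and 0.83 without E1), with 360.5 CPM in B4 against 127 to 159 CPM in the other 12-week libraries and 203 to 394 CPM at 5 weeks. Of these genes edgeR called 0 for genotype at either age, with 2 at 12 weeks and 0 at 5 weeks under an unadjusted p of 0.05, and DESeq2 called 2 and 0 (*Hba-a2* and *Hbb-bs*), and 3 were lower with age, *Hba-a1* (log2 -0.79 ± 0.26, adjusted p = 0.0273). The age call of *Hba-a1* passed in 9 of 15 alternatives, and not without the filter or with some of the libraries left out.

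Genes outside the members were ranked by how closely they followed the members over the 10 libraries (n = 10, no test). *Serpind1*, a clotting inhibitor, came first with r = 0.976, at 1.57 and 3.17 CPM in B1 and B3 and 4.30, 11.6 and 5.96 CPM in B4, B5 and B6, and 3.83 and 8.44 CPM in E1 and E3 and 2.23, 2.96 and 2.38 CPM in E4, E5 and E6. *Slc13a4*, a sulfate carrier, followed at 0.974, with 1.48 and 13.5 CPM in B1 and B3 and 13.8, 40.4 and 22.8 CPM in B4, B5 and B6, and 13.4 and 32.7 CPM in E1 and E3 and 6.02, 9.88 and 5.84 CPM in E4, E5 and E6. Complement *C2* had 0.972, laminin *Lamb2* 0.970, the channel gene *Calhm2* 0.959, the ligand *Wnt6* 0.956, the lactate receptor *Hcar1* 0.952 and the peptidase *Anpep* 0.951. *Fgfbp1*, which releases growth factors from matrix, reached 0.934, *Foxc2*, a partner of *Foxc1*, 0.932, *Cxcl16* 0.929, *Colec12* 0.926, *Mpzl2* 0.922, laminin *Lama4* 0.921 and the collagen receptor *Mrc2* 0.920. In each of the 15, B1 was the lowest and B5 the highest of the 12-week libraries. With scaling by library size 13 of the 15 were the same, and with a smaller prior count all 15 were. Among the members themselves the correlation with the mean of the other members was highest for *Cdh1* (0.978), *Islr* (0.975) and *Aldh1a2* (0.972), and lowest for *Myoc* (0.247), *Nupr1* (0.433) and *Slc22a2* (0.461). *Slc22a2* was near the floor, *Nupr1* differed between the ages, and *Myoc* had its highest and lowest 12-week values in WT.

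On the chromosomes, in RefSeq's order of genes, *Dcn* and *Lum* are next to each other, *Itih2* is next to *Itih5*, and *Slc13a3* lies within 3 genes of *Eya2*. *Kera* and *Epyc*, beside *Lum*, were at or under the floor. *Slc22a8*, which encodes OAT3 and lies beside *Slc22a6*, read 26 and 25.1 CPM in B1 and B3 and 30.6, 41.8 and 28.9 CPM in B4, B5 and B6, and 36.7 and 44.7 CPM in E1 and E3 and 31.3, 30.7 and 32.2 CPM in E4, E5 and E6. *Slc6a12*, beside *Slc6a13*, read 0.461 and 4.61 CPM in B1 and B3 and 7.41, 9.64 and 7.76 CPM in B4, B5 and B6, and 5.13 and 7.09 CPM in E1 and E3 and 4.45, 4.26 and 2.58 CPM in E4, E5 and E6. *Aspn*, near *Ogn*, read 1.34 and 0.865 CPM in B1 and B3 and 0.665, 0.976 and 0.965 CPM in B4, B5 and B6, and 0.451 and 0.541 CPM in E1 and E3 and 0.708, 0.953 and 0.672 CPM in E4, E5 and E6, without the low value in B1 that *Ogn* had.

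Promoters were found for 26 of the 38 members, as 31 sequences of 250 bases before and 50 after the start of the transcript, and 12 members had no entry. The median GC content was 52.7%, the same as over all 32851 promoters. Motifs were searched by their letters on both strands, and a match is a description of sequence and no evidence of binding. The forkhead letters GTAAACA were in 0 of 31, against 3.65% of all promoters, and the T-box letters GGTGTGA were in 1, that of *Ptgds*, against 3.98%. AGGTCA, letters that nuclear receptors bind, was in 4 promoters of *Asgr1*, *Gjb2* and *Slc6a13*, against 16.3%. The GC-rich SMAD letters GGCGCC were in 5, of *Aebp1*, *Aldh1a2*, *Foxc1*, *Gjb2* and *Slc6a20a*, against 11.9%, and the letters TATAAA in 3, of *Myoc*, *Ogn* and *Spp1*, against 13.6%. They began 26 bases before the start in *Myoc*, where a TATA box lies, but 211 before it in *Spp1* and 229 and 227 before it, on opposite strands, in *Ogn*. No motif was tested for enrichment. In the promoters of *Ptgds*, *Aldh1a2* and *Myoc*, shown for these matches, the matches are in capitals.
Ptgds promoter, chr2:25469700-25469999, - strand, GRCm38.p6: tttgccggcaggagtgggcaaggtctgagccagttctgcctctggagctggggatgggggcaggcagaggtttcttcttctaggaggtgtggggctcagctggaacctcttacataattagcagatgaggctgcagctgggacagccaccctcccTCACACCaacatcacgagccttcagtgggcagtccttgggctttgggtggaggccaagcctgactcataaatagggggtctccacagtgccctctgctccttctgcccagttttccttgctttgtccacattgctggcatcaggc

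Aldh1a2 promoter, chr9:71215539-71215838, + strand, GRCm38.p6: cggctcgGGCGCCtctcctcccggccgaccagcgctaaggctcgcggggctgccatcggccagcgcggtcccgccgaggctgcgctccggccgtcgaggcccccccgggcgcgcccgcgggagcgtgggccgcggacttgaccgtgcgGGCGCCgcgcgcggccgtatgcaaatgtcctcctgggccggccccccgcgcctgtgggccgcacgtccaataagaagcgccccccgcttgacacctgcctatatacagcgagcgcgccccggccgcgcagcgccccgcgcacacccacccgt

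Myoc promoter, chr1:162638900-162639199, + strand, GRCm38.p6: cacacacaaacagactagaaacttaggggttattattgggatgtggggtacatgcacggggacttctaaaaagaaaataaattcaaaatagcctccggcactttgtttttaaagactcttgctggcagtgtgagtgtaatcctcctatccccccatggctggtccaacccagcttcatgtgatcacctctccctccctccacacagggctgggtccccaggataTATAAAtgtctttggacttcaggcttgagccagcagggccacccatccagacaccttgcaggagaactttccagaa

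The floor covers counting error only, and since the libraries carry no molecular tags, copies made by PCR are counted as reads. With 2 WT libraries per age, a single library weighs heavily, and for most members leaving out B3 gave the highest and leaving out B1 the lowest 12-week value. Most members differed together between WT libraries, and the amount of leptomeningeal tissue in a punch and the level of these genes per cell cannot be told apart, and neither was tested. The age of a library is known from its genotype label and the paper, while its extraction label gives 12 weeks for all 10 libraries. No protein was measured and no cell type was counted.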

How the data were processed

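The values are expected counts from RSEM that the authors deposited, estimates with fractions, and they were rounded to whole numbers. The methods name alignment to GRCh38, a human build, and counting with featureCounts, mention kits from both NEBNext and KAPA, and do not say which step made the table, whose symbols are those of mouse genes. The labels call the cell type neuronal.

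Genes were filtered with filterByExpr, scaled by TMM and tested with edgeR (quasi-likelihood F test, robust dispersions) at a Benjamini-Hochberg adjusted p of 0.05, within each age and, over all 10 libraries, for the interaction and for age weighted by group size. ± after a log2 fold change is its standard error. Alternatives were DESeq2's likelihood ratio test (on every gene with a count, with its own filter in place of filterByExpr, so that test and filter differ at once), RLE factors, library size only, no filter, equal weights, 1 fit of all 4 groups, and each library left out. The left-out sums of members were added after seeing the data. The members, their roles and the 19 lists (270 genes) were chosen with earlier results of these data known. The genes named are all members, of the lists those past the threshold or most abundant (some are not reported here), the 15 genes most like the members with a mean of at least 1 CPM, and neighbours. Likeness used log2 CPM with a prior count of 2, or of 0.5. Lengths came from GENCODE M21. In simulated data 200 genes differed by 2 (log2). The test recovered 197 of them at 12 weeks, 196 at 5 weeks, 191 for the interaction and 200 for age. In the measured libraries it called neither *Prg4* (log2 2.88) nor *Cdh1* (log2 2.27) for genotype at 12 weeks. At 5 weeks it called neither *Myoc* (log2 -2.77) nor *Slc36a2* (log2 -2.05). The share of such differences that the test finds in the measured libraries was not tested. R 4.3.3, edgeR 4.0.16, limma 3.58.1, DESeq2 1.42.0, Python 3.11.15, numpy 2.4.6, pandas 2.3.3 and matplotlib 3.10.9 were used.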

Additional observations from a re-analysis of the deposited data

Results flagged for a closer look

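For 13 members the genotype difference had opposite directions at the 2 ages, with no overlap between the groups at either, as 1.08% of 15880 genes tested at both ages had. edgeR called the interaction for 0 genes, with 647 under an unadjusted p of 0.05. DESeq2 with its own filter called 13 genes, where edgeR without filterByExpr called 1. The difference between the 12-week and the 5-week log2 fold change was 4.53 for *Prg4*, 1.16 for *Mgp*, 3.02 for *Itih2*, 1.82 for *Islr*, 2.66 for *Slc36a2*, 1.47 for *Slc13a3*, 2.28 for *Slc6a13*, 3.10 for *Slc22a6*, 1.17 for *Foxc1*, 3.00 for *Aldh1a2*, 3.56 for *Cdh1*, 2.39 for *Ptgds*, 2.47 for *Asgr1*. Members were chosen partly on this pattern, and the cause was not tested.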

How the results depend on the processing

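Under alternative settings, genes called for genotype at 12 weeks went from 0 to 1 without the filter on low counts, to 4 with DESeq2, which changed the filter as well as the test, and to 0 to 9 when each library was left out in turn. At 5 weeks the 1 gene called became 263 without the filter, 390 with DESeq2 and its own filter, 0 with all 4 groups in 1 fit and 1 to 160 with a library left out. The interaction went from 0 to 1 without the filter, to 13 with DESeq2 and its own filter and to 0 to 113 with a library left out.

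Leaving out 1 library at a time, the median log2 fold change of the members ran from 0.62 to 1.56 at 12 weeks, from -1.24 to -0.43 at 5 weeks and from 1.32 to 2.33 for the difference between them. The members with no overlap numbered 20 to 35 at 12 weeks, where the share of all genes went from 7.85% to between 13.3% and 32.6%, and 30 to 35 at 5 weeks, where it went from 17.5% to between 22.6% and 30.8%. With RLE factors they numbered 19 and 28. The summed fold ran from 1.50 to 4.31 and from 0.390 to 0.661. The median age difference of the members, 0.084, became -0.078 with genotypes weighted equally and ran from -0.093 to 0.40 with a library left out, below 0 also without B6 (-0.0013) and E4 (-0.017). Members called for age ran from 2 to 10, those higher from 0 to 8 (2 with equal weights) and those lower from 2 to 5 (4 with equal weights). With a library left out, calls over all genes ran from 6380 of 16440 without E6 to 9467 of 16376 without B4. Those higher ran from 3533 to 4854 (4133 with equal weights) and those lower from 2847 to 4613 (3640 with equal weights). *Bbs5* at 12 weeks, -0.041, became 0.027 with library size only and ran from -0.17 to 0.054 with a library left out.

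Library size alone in place of TMM took the median of all genes from 0.0014 to 0.064 at 12 weeks, from 0.0062 to 0.079 for the interaction and from 0.0032 to 0.050 for age, and the share of age calls that were higher went from 53.4% to 59.9%. No paired analysis was possible because replicate numbers do not join libraries of different groups. The cause of these shifts was not tested.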
